A study of Sus scrofa with 10 samples.

Results

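HBB-rich cells were the cells in which at least 30% of all UMIs came from HBB, the gene of the beta globin chain. They numbered 1535 of the 28229 cells in 10 droplet libraries of the pig medial entorhinal cortex (MEC). The cells were chosen by the measured share of HBB in each cell, so HBB itself and levels set against the remaining cells of the same libraries are given as a description, with no test. Tests were run only on differences between stages. The study asked which cell types appear in the MEC over fetal development, and set red blood cells aside before that analysis. Whole cells were taken by papain dissociation of fresh tissue from fetuses at embryonic day 50 (1 library, E50_1, 3 pooled brains), day 60 (E60_1 and E60_2 from 1 brain each, E60_3 from 2) and day 70 (E70_1 from 2 brains, E70_2 and E70_3 from 1 each), and from 1 adult brain (Adult_1). Nuclei of snap-frozen tissue, sorted on a DNA dye, made up a library at E70 (E70_nc) and a library from the adult (Adult_nc), with 1 brain each. The fetuses were crosses of Danish Landrace/Yorkshire sows with Duroc boars, and the labels name no engineered allele and no agent given. A library could pool brains, and replicates existed for whole cells of E60 and E70 alone. Values of the other groups come from single libraries and have no replicate check.

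Red cells carry oxygen on hemoglobin, a tetramer of alpha-type and beta-type globin chains that each hold a heme. The chains are switched during development, with epsilon (HBE1) and zeta (HBZ) chains in the embryo and alpha and beta chains later. As erythroblasts mature they stop dividing, fill with globin mRNA, expel the nucleus and become reticulocytes, which lose their ribosomes and RNA. Blood is carried along when brain tissue is dissociated, so red cells are a usual part of whole cell libraries of brain.

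The bases before the start of 5 erythroid genes are shown. These genes, other than HBE1, were detected in nearly all HBB-rich cells, while most HBE1 UMIs lay in few cells. Each sequence is the 250 bases before the RefSeq gene start on Sscrofa11.1, on the gene's own strand, and capitals mark 4 motifs, each searched on both strands: AGATAA as the letters of a GATA site, CACCC as those bound by factors of the KLF family, CCAAT as those of a CCAAT box, and ATAAA as those of a TATA-like box.
HBB, chr9:4801942-4802191, minus strand: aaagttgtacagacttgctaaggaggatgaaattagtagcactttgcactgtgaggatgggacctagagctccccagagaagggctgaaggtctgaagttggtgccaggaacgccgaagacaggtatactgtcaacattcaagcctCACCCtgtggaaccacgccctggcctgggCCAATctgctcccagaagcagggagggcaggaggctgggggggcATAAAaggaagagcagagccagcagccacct
HBE1, chr9:4820244-4820493, minus strand: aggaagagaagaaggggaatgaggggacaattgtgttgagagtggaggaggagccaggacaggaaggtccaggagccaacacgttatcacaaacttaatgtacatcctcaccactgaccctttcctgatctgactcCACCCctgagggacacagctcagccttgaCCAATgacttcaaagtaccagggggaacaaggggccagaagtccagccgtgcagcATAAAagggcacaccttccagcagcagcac
HBM, chr3:41490111-41490360, minus strand: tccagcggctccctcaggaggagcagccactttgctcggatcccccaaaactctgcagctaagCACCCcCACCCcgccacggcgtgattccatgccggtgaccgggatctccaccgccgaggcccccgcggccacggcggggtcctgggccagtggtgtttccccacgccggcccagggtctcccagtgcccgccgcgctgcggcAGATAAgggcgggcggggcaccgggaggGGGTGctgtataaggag
ALAS2, chrX:47896042-47896291, minus strand: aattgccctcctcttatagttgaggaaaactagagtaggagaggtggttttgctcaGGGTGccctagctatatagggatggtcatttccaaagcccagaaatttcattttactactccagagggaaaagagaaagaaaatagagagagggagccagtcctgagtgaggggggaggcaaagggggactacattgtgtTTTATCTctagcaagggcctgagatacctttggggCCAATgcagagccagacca
AHSP, chr3:17060344-17060593, minus strand: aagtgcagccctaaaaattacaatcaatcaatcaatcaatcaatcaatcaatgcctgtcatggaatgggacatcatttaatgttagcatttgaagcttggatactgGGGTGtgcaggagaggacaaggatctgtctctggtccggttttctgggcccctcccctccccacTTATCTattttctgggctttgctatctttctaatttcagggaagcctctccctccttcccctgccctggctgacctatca
AGATAA was found in 8.08% of the 19556 windows of this length before all protein-coding genes, CACCC in 53.9%, CCAAT in 31.9% and ATAAA in 31.4%. The windows of HBB and HBE1 held the same motifs in the same order, and likeness of their other letters was not measured. Both held every motif but AGATAA, each at 1 place, with the ATAAA starting 31 bases before the start of HBB and 30 bases before that of HBE1, the CCAAT at 75 and 85 bases, and the CACCC at 104 and 114 bases. AGATAA was in the windows of HBM (45 bases before the start), ALAS2 (53) and AHSP (80). In ALAS2 it shared 4 bases with ATAAA. These matches are letters in a window, and no binding was measured.

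HBB-rich cells were found in all 8 whole cell libraries and in neither library of nuclei. Their share was 2.82% (155 of 5506 cells) in E50_1, 8.37% (684 of 8171) in E60_1, 12.1% (421 of 3479) in E60_2, 3.64% (98 of 2696) in E60_3, 5.88% (29 of 493) in E70_1, 4.86% (30 of 617) in E70_2, 3.21% (100 of 3120) in E70_3 and 2.44% (18 of 737) in Adult_1. E60_2 stood above the others by its exact (Clopper-Pearson) 95% interval of 11.0% to 13.2%. The interval of E60_1 (7.78% to 8.99%) overlapped that of E70_1 (3.97% to 8.34%) and lay above those of the other libraries. In the nuclei 0 of 858 cells at E70 and 0 of 2552 in the adult were HBB-rich, and 3 cells would have made 0.350% and 0.118%. The highest share of HBB in any nucleus was 0.350%, from 18 and 16 HBB UMIs in the 2 libraries. These intervals and limits cover counting error only.

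**Figure D1:**
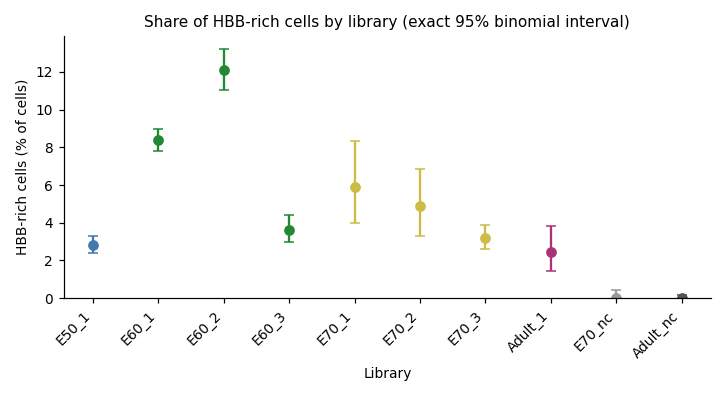
HBB-rich cells as a percentage of the cells of each library, with exact 95% binomial intervals. Points are colored by stage and preparation, and the highest are E60_2 (12.1%) and E60_1 (8.37%), while both libraries of nuclei are at 0.

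The libraries held between 2336865 and 55755512 UMIs. HBB-rich cells held 1.38% (Adult_1) to 9.25% (E60_2) of the UMIs of a whole cell library, and 76.5% to 96.0% of its HBB UMIs. The rest of the HBB UMIs lay in the other cells, where HBB made up 1.10% and 1.26% of the UMIs in E60_1 and E60_2 and 0.0567% to 0.431% in the other 6 libraries. Over the 45 pairs of libraries 455 cell barcodes were shared, and 0 of these were HBB-rich in both. E60_1 shared a sequencing pool with E70_1, and E60_3 with E70_3, by the library numbers of the study.

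HBB-rich cells had UMI counts near those of other cells but far fewer genes. Their median UMI count was 8204 in E50_1, 4257.5, 5158 and 8826.5 in E60_1, E60_2 and E60_3, 8988, 9226 and 8047 in E70_1, E70_2 and E70_3, and 5045.5 in Adult_1, against 8480, 4250, 5532, 7948, 9331.5, 9403, 6783 and 6960 in the remaining cells of the same libraries. When each cell was drawn down to 1000 UMIs, the median was 68 genes in E50_1, 53, 66 and 51 in the 3 E60 libraries, 210, 216.5 and 55 in the 3 E70 libraries and 74 in Adult_1. Up to 400 remaining cells per library, drawn down in the same way, had medians of 745 to 794.5 genes. E70_1 and E70_2 stood apart: their HBB-rich cells had 210 and 216.5 genes at equal depth where the other 6 libraries had 51 to 74, and an HBB share with a median of 33.9% and 34.2% and a maximum of 41.3% and 42.9%. In the other 6 libraries the median HBB share was 53.4% to 60.5%.

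The cells just inside and just outside the line were alike. At 30% to 35% HBB there were 143 cells, with a median of 1439 genes and a UMI of ALAS2 in 95.1%, and at 25% to 30% there were 125 cells with 1585 genes and ALAS2 in 92.0%. Of these 125 cells, 113 came from E60_1 and E60_2, where the HBB share ran on without a gap, whereas E60_3, E70_2 and Adult_1 held 0 and E70_3 held 2 such cells. The 348 HBB-rich cells with over 1000 genes, 296 of them from E60_1 and E60_2, had markers of astroglia and radial glia at 2315 CPM, against 222 CPM in the 1187 HBB-rich cells with fewer genes. Markers of neurons were at 946 and 197 CPM and those of microglia at 772 and 205 CPM in the same 2 sets. The rise was not confined to brain markers: cytosolic ribosomal protein genes were at 39914 and 11447 CPM, while genes of heme synthesis and iron were at 7829 and 14743 CPM. CPM, the usual scaling of a gene's counts to a fixed library total, is here taken over the UMIs without HBB, summed over cells. No doublet caller was run, and the part of doublets or of free RNA in these cells was not tested.

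**Figure D2:**
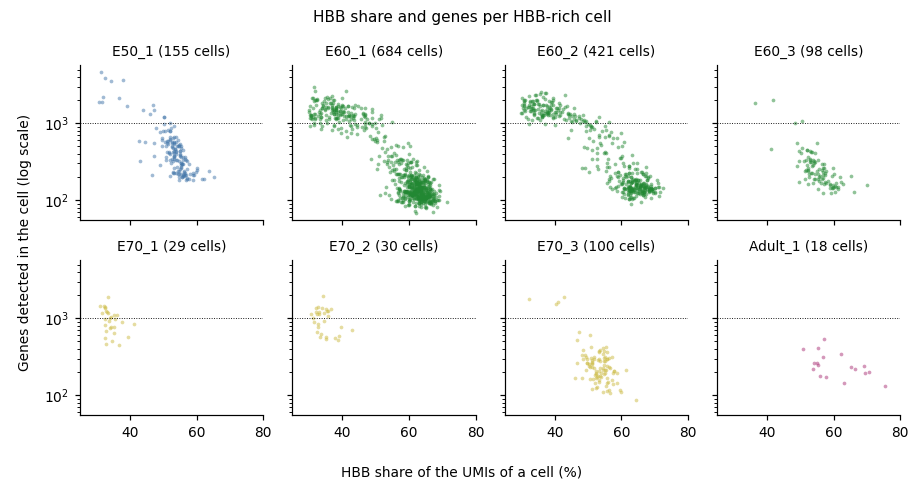
Genes detected per HBB-rich cell (log scale) against the share of HBB in its UMIs (%), with 1 panel per whole cell library, 1 point per cell and a dotted line at 1000 genes. E60_1 and E60_2 hold a run of cells from high HBB and few genes to low HBB and many genes, and all cells of E70_1 and E70_2 lie at or below 42.9% HBB.

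The erythroid label was checked against the other 4 marker genes. HBM, the mu globin of the alpha locus, had a UMI in 95.6% of HBB-rich cells and in 4.48% of the remaining cells. ALAS2, the first enzyme of heme synthesis in red cells, had a UMI in 98.8% and 4.76%. HEMGN (hemogen, a nuclear protein of erythroid cells) was detected in 21.3% and 11.8%, and SLC4A1 (band 3, the anion exchanger of the red cell membrane) in 10.3% and 1.65%. At 1000 UMIs per cell, ALAS2 was found in 67.5% to 85.8% of HBB-rich cells by library and in 0% to 2.5% of the remaining cells, and HEMGN in 0% to 6.67% and 1.00% to 3.50%. HBM and ALAS2 were thus marks of nearly every HBB-rich cell, while HEMGN and SLC4A1 were detected in a minority.

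By library, ALAS2 was at 4581 CPM in E50_1, at 3184, 2353 and 2390 CPM in the E60 libraries, at 1854, 2294 and 2569 CPM in the E70 libraries and at 5764 CPM in Adult_1, against 5.04 to 23.3 CPM in the remaining cells. SLC4A1 was at 126 CPM in E50_1, at 124, 90.3 and 192 CPM in the E60 libraries and at 34.3 and 126.9 CPM in E70_2 and E70_3, but had 0 UMIs in the HBB-rich cells of E70_1 and Adult_1, which were only 29 and 18 cells. The remaining cells of E70_1 and E70_2 had SLC4A1 at 9.28 CPM each, above the 2.05 to 3.77 CPM of the other libraries. HEMGN was at 123 to 137 CPM in the HBB-rich cells of E50_1, of the 3 E60 libraries and of E70_3, and at 30.2, 57.2 and 48.9 CPM in E70_1, E70_2 and Adult_1. The label held in all 8 libraries by HBM and ALAS2. E70_1 and Adult_1 lacked SLC4A1, and in E70_2 its 6 UMIs lay in 1 cell (3.33% of its HBB-rich cells).

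**Figure D3:**
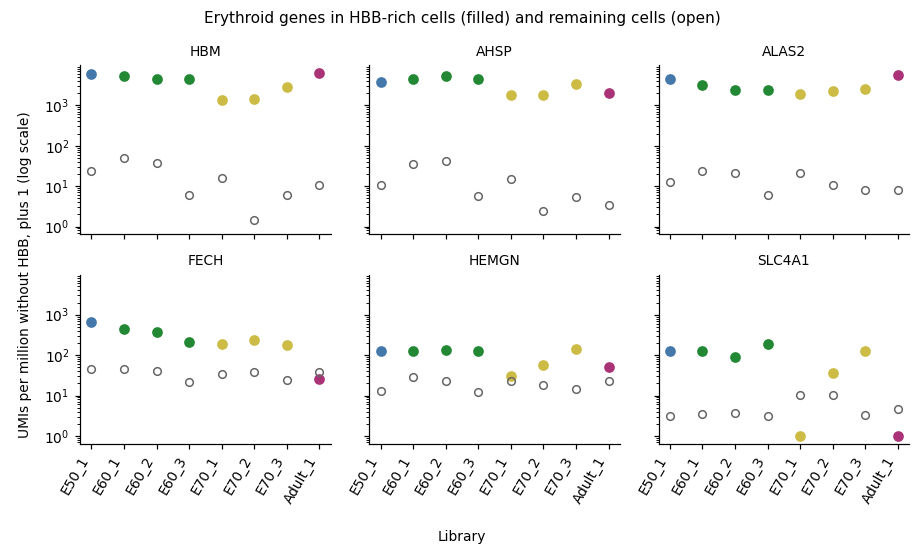
CPM without HBB, plus 1 (log scale), of 6 erythroid genes in each whole cell library, with HBB-rich cells as filled and remaining cells as open circles. HBM, AHSP and ALAS2 are over 1000 in every library, SLC4A1 is at 0 in E70_1 and Adult_1, and FECH in Adult_1 lies below the remaining cells.

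A second transcript took a large part of the remaining UMIs. ENSSSCG00000007978, an Ensembl gene to which the tables used here give no name, made up 35.2% of the UMIs of HBB-rich cells in E50_1, 28.0%, 25.4% and 37.0% in the E60 libraries, 25.3%, 25.4% and 37.9% in the E70 libraries and 25.1% in Adult_1. Together with HBB it took 78.3% to 91.1% of all UMIs in 6 libraries, and 59.3% and 59.6% in E70_1 and E70_2. All other genes of a cell shared a median of 309 UMIs in E60_1 and up to 794 in the 5 others of those 6 libraries, but 3230 and 3738.5 in E70_1 and E70_2. This sets the scale of every other gene: among 11006 genes with at least 10 UMIs in both sets of cells, the median log2 ratio of HBB-rich to remaining cells was -2.00 without HBB and -0.57 when ENSSSCG00000007978 was left out as well. Of 19306 genes detected, 149 (0.772%) were higher and 15325 (79.4%) lower in HBB-rich cells in each of the 5 libraries with at least 50 such cells, and without both transcripts 430 (2.23%) were higher and 7667 (39.7%) lower. A gene is called higher or lower in what follows only where both scales give the same direction, and both ratios are given otherwise.

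The hemoglobin genes other than HBB were all higher. Of the 11 listed globins, HBB, HBM, HBE1, HBZ and HBQ1 were in the files under these names, and the 4 other than HBB were higher in HBB-rich cells in all 8 libraries. HBM was 199-fold higher, HBE1 173-fold, HBZ 450-fold and HBQ1, the theta chain, 3.00-fold. HBM stood at 58.2 UMIs per 10000 HBB UMIs in E50_1, at 44.9, 41.0 and 38.2 in the E60 libraries, at 26.9, 28.2 and 25.4 in the E70 libraries and at 43.6 in Adult_1. Over all HBB-rich cells HBM was thus lower in each E70 library than in each E60 library, and the adult cells were within the range of E60. In those with at most 1000 genes the stages overlapped, with E60_3 at 28.0 and E70_2 at 32.3.

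The embryonic chains followed no such order. HBE1 stood at 9.31 UMIs per 10000 HBB UMIs in E50_1, at 3.97, 2.59 and 5.46 in the E60 libraries, at 7.28, 24.8 and 2.27 in the E70 libraries and at 7.74 in Adult_1. HBZ stood at 6.40 in E50_1, at 1.91, 4.30 and 1.69 at E60, at 0.587, 1.98 and 1.76 at E70 and at 0.168 in Adult_1, which held 1 UMI. HBZ was highest in the youngest library and lowest in the adult, with E60 and E70 overlapping. HBE1 had a UMI in 30.3% of the HBB-rich cells of E50_1 and in 17.4%, 26.4% and 77.6% in the E60 libraries. In the E70 libraries it had a UMI in 75.9%, 80% and 59% of these cells, and in Adult_1 in 88.9%. HBE1 was highest in E70_2, where 24 of the 30 cells held an HBE1 UMI and 2 held at least 5. The sum of HBE1 and HBZ in that library was 26.7 over all 30 cells and 10.1 in those with at most 1000 genes, where E50_1 was at 17.3.

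**Figure D4:**
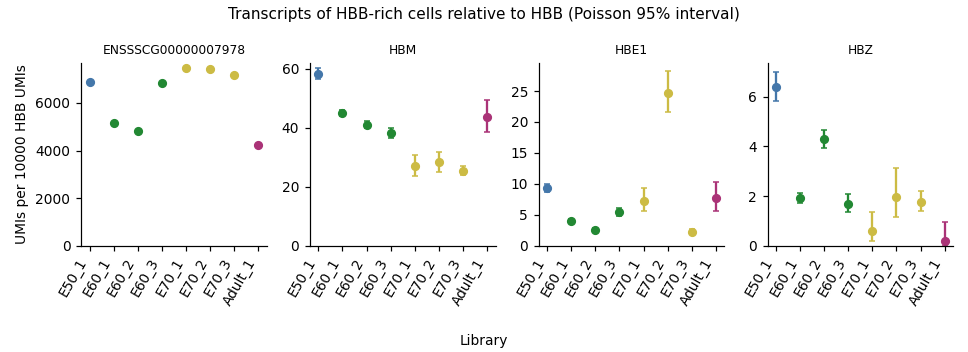
UMIs of ENSSSCG00000007978, HBM, HBE1 and HBZ per 10000 HBB UMIs in the HBB-rich cells of each whole cell library, with Poisson 95% intervals that cover counting error only, on axes that start at 0. HBM lies at 38.2 to 44.9 in the 3 E60 libraries and at 25.4 to 28.2 in the 3 E70 libraries, and HBE1 is highest in E70_2 (24.8).

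Heme synthesis was led by its first and last enzymes. ALAS2 was 221-fold higher in HBB-rich cells, and FECH (ferrochelatase, which puts iron into the ring) 10.7-fold, at 674 CPM in E50_1, 430, 374 and 212 CPM at E60, 187, 235 and 182 CPM at E70 and 24.4 CPM in Adult_1, where it rested on 1 of 18 cells. ALAD was 2.67-fold higher, UROS 2.63-fold, UROD 2.26-fold and CPOX 1.80-fold over all cells, while PPOX had ratios of 0.788 and 2.12 on the 2 scales. TSPO2, an erythroid protein of porphyrin transport, was 51.6-fold higher. TFRC, the transferrin receptor for iron uptake, was lower, with 0.285 and 0.769. FTL, the light chain of ferritin, was 3.80-fold higher and had a UMI in all 1535 cells. Of the 15 genes of this list in the files, 8 were higher and 4 lower in all 5 libraries without HBB, and 11 and 0 without both transcripts. The shares of all genes were 0.772% higher and 79.4% lower without HBB, and 2.23% and 39.7% without both.

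Of the membrane and skeleton genes, those particular to red cells were higher, although few cells held them. SLC4A1 was 40.3-fold higher, RHAG (a Rh-associated ammonia channel) 24.6-fold, EPB42 (protein 4.2) 13.9-fold, RHCE 8.39-fold and GYPC (glycophorin C) 3.12-fold. EPB41 was 2.00-fold higher, SPTB (beta spectrin) 3.10-fold and ANK1 (ankyrin) 1.18-fold, while ADD2 had 0.332 and 0.895. XK was at 417 and 595 CPM in the HBB-rich cells of E70_1 and E70_2 and at 0 to 24.9 CPM in the other 6 libraries, and the remaining cells of E70_1 and E70_2 stood at 309 and 407 CPM, above the 6.31 to 44.0 CPM of the remaining cells elsewhere. Of the 15 genes, 9 were higher and 1 lower in all 5 libraries without HBB, and 12 and 0 without both. Among all genes 0.772% were higher and 79.4% lower without HBB, and 2.23% and 39.7% without both.

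Erythroid transcription factors were scarce. GATA1, the main factor of red cell development, had 49 UMIs in 40 cells, KLF1 28 UMIs in 22 cells and TAL1 4 UMIs in 4 cells, all above their CPM in the remaining cells (19.1-fold, 18.3-fold and 14.2-fold). NFE2 had 106 UMIs and was 47.4-fold higher. SOX6, which silences embryonic globin genes, had 1251 UMIs in 356 cells and ratios of 1.16 and 3.13. BCL11A, another silencer of fetal globin genes in people, was lower (0.164 and 0.442), as were MYB and GATA2 with 2 and 3 UMIs. On the scale without HBB 4 of the 15 genes were higher and 5 lower in all 5 libraries, and without both transcripts 6 and 3. Over all genes 0.772% were higher and 79.4% lower without HBB, and 2.23% and 39.7% without both.

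Proteins that keep hemoglobin soluble and free of oxidation were high. AHSP, the chaperone of free alpha chains, had a UMI in 98.0% of HBB-rich cells and was 258-fold higher, at 3865 CPM in E50_1, at 4564, 5209 and 4527 CPM in the E60 libraries, at 1842, 1791 and 3278 CPM in the E70 libraries and at 2003 CPM in Adult_1. This scale moves with ENSSSCG00000007978, so no order of the libraries is read from it. GPX1 (glutathione peroxidase) was 7.42-fold higher, BLVRB (biliverdin reductase B) 15.01-fold and PRDX2 (peroxiredoxin 2) 1.89-fold. SOD1 and HMOX1 were lower (0.299 and 0.805, 0.249 and 0.671). Among genes of metabolism and gas exchange, AQP1, the water channel, was 28.6-fold higher and BPGM, which makes the ligand that lowers oxygen affinity, 3.67-fold. GAPDH was at 0.295 and 0.795, and CA1 and ALDOA had 2 UMIs each.

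Genes of terminal maturation were mixed. TRIM58, a ubiquitin ligase of nuclear expulsion, was 58.5-fold higher, UBE2O, which clears ribosomes, 6.05-fold, XPO7, a nuclear exporter, 2.30-fold, BNIP3L, which removes mitochondria, 2.08-fold and GABARAPL2 1.87-fold. UBB had ratios of 0.547 and 1.47 on the 2 scales. Ribosomal protein genes were lower in HBB-rich cells without HBB for 45 of the 50 found, in all 5 libraries, and for 19 without both, where 5 were higher. Genes of cell division were lower for all 13 found without HBB and for 5 without both. Over all genes 79.4% were lower without HBB and 39.7% without both, so on the second scale the lower shares of both lists were near that of all genes. On that scale 2.23% of all genes were higher, beside the 5 of 50 ribosomal protein genes. RPL10, RPL22, RPS14, RPS28 and RPLP2 had no UMI in HBB-rich cells. Mitochondrially encoded genes (13) made up 0.108% to 0.916% of the UMIs without HBB in HBB-rich cells and 0.868% to 2.74% in the remaining cells. Without both transcripts the direction turned in 2 libraries, with 2.30% against 2.08% in E60_1 and 1.99% against 1.63% in E60_2.

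Beyond the lists, PYY, a gut peptide hormone gene, was at 2673 CPM in E50_1, at 1470, 2645 and 1213 CPM in the E60 libraries, at 344, 481 and 1577 CPM in the E70 libraries and at 0 in Adult_1. It had a UMI in 34.3% of HBB-rich cells and in 1.37% of the remaining cells. It was found in the HBB-rich cells of all 7 fetal libraries and in 0 of the 18 of Adult_1. Of the 20 most abundant genes outside the lists, 17 had ratios above 1 on both scales. TMSB4X, a thymosin that binds actin, was lower on both (0.262 and 0.707), and the ratios of ATP6 (0.433 and 1.17) and PTN (0.639 and 1.72) turned. ATP5IF1, the inhibitor of the mitochondrial ATP synthase, was 8.42-fold higher and detected in 99.2% of HBB-rich cells. ARG1 (arginase) was 50.3-fold higher and ICAM4, a blood group adhesion protein, 60.2-fold. PRKG1, a kinase that cGMP turns on, was at 33953 and 34564 CPM in the HBB-rich cells of E70_1 and E70_2 and at 569 to 1694 CPM in those of the 6 other libraries. HMCES, a sensor of abasic DNA, was at 17019 and 17371 CPM against 223 to 763.5 CPM. In the remaining cells of E70_1 and E70_2 these genes were at 827 and 404.5 CPM (PRKG1) and 331 and 271 CPM (HMCES).

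The transcripts of HBB-rich cells differed in how evenly they were spread. For each gene, the 77 cells (5%) with the most of its UMIs held 11.6% of the HBB UMIs, 16.9% of those of AHSP, 17.9% of those of ALAS2 and 32.5% of those of HBM. For HBE1, SLC4A1, HBZ and RHAG they held 77.5%, 81.8%, 82.9% and 84.9%. The UMIs of HBB, AHSP and ALAS2 were thus the more evenly spread. HBM lay between, with up to 336 UMIs in a cell and a median of 7, and most UMIs of the last 4 genes lay in few cells.

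**Figure D5:**
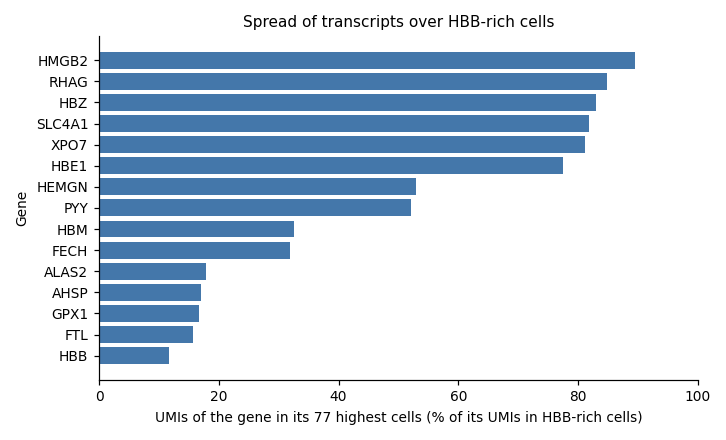
Share of a gene's UMIs in HBB-rich cells (%) that lay in the 77 cells with the most UMIs of that gene, for 15 genes, with bars from 0. HBB, FTL, GPX1, AHSP and ALAS2 are at 11.6% to 17.9%, and HBE1, XPO7, SLC4A1, HBZ, RHAG and HMGB2 at 77.5% to 89.6%.

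Most HBE1 UMIs lay in cells that also held a second transcript. The 40 cells with at least 5 HBE1 UMIs held 72.1% of its UMIs, and 24 of them had at least 5 UMIs of ENSSSCG00000036777, which has no name in the tables used here and 26 such cells in all. Those 26 cells held 1632 of the 2414 HBE1 UMIs and came from E50_1 (5), E60_1 (13), E60_2 (4), E60_3 (2), E70_2 (1) and E70_3 (1). Their ALAS2 (2957 CPM) and AHSP (4381 CPM) were near those of the other HBB-rich cells (3002 and 4264 CPM). HBZ had at least 5 UMIs in 74 cells, and 5 of these were among the 40 HBE1 cells. Its level was 738 CPM in the 40 HBE1 cells and 322 CPM in the others. PYY had at least 5 UMIs in 328 cells, 22 of them with at least 5 of HBZ. These sets were chosen after their values were seen and have no test.

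SLC4A1 was carried by cells with many other erythroid transcripts. The 27 cells with at least 5 SLC4A1 UMIs had a median of 985 genes, against 224 in the other 1508 HBB-rich cells, and came from E50_1 (6), E60_1 (10), E60_2 (4), E60_3 (4), E70_2 (1) and E70_3 (2). RHAG had a UMI in 25 of the 27 and in 6.37% of the others, EPB42 in 21 (4.84%), SPTB in 21 (4.18%), TFRC in 21 (7.56%) and TRIM58 in 19 (8.95%). Some genes of the cell cycle were found in them as well: HMGB2 in 17 (9.35%), CENPF in 13 (1.99%) and CDK1 in 10 (2.59%). BIRC5, CCNB1, UBE2C and TOP2A were in 15, 12, 11 and 6 of the 27. Others of that list were not raised or scarce. PCNA and NUSAP1 had CPM ratios of 0.742 and 0.926 to the other cells, and MCM2, MCM3, MCM5 and TYMS were in 1, 0, 1 and 2 cells. HBM was at 16795 CPM in the 27 cells and 4255 CPM in the others, while ALAS2 (2074 and 3034 CPM) and FTL (5012 and 8581 CPM) were lower in them. HBE1 reached 5 UMIs in 0 of the 27 cells. Some markers of other cells were also more often found in the 27 cells. PTPRC was in 6 (22.2% against 1.79%), PECAM1 in 4, KDR in 3 and FABP7 in 14 (51.9% against 27.4%). Beside PTPRC, the genes of the microglia list were mixed. AIF1 was in 3 of the 27 cells (4.31% of the others) and C1QB in 4 (7.16%). C1QA and C1QC were in 1 cell each (5.70% and 4.31%). CSF1R, CX3CR1 and P2RY12 were at 0, but were in only 3.05%, 1.66% and 3.25% of the other cells. Of the 27 cells 13 had over 1000 genes, and their median depth was 9716 UMIs against 5305. The part of depth and of other cells in these shares was not tested.

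Stages were compared between the 3 E60 and the 3 E70 libraries of whole cells. Each library value depends on the HBB share that chose the cells, whose median was 33.9% and 34.2% in E70_1 and E70_2 and 53.4% to 60.5% elsewhere, so the values are given as a description. A two-sided exact permutation test over libraries, which cannot go below p = 0.1, gave p = 0.1 to 0.7 for the 6 values (0.3 to 0.7 adjusted over the 6), and nothing is read from it. HBM was at 41.4 ± 3.34 UMIs per 10000 HBB UMIs at E60 and at 26.8 ± 1.38 at E70 (mean and SD, 3 libraries each), with no overlap. Within the sequencing pools it was 44.9 in E60_1 and 26.9 in E70_1, and 38.2 in E60_3 and 25.4 in E70_3. Among the HBB-rich cells with at most 1000 genes, HBM was at 28.0 in E60_3 and at 32.3 in E70_2, so that the 2 stages overlapped. ENSSSCG00000007978 was at 5594 ± 1091 and 7347 ± 152 UMIs per 10000 HBB UMIs, again with no overlap, a comparison added after the values were seen. Within the pools the difference was 2310 (E70_1 over E60_1) and 336 (E70_3 over E60_3).

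The other library values overlapped between the stages. The share of HBB-rich cells was 8.04% ± 4.24 at E60 and 4.65% ± 1.35 at E70, with differences of -2.49 and -0.43 percentage points within the 2 pools. Median UMIs per cell were 6081 ± 2420 and 8754 ± 623, with differences of 4730.5 and -779.5 within the pools. Genes per cell at 1000 UMIs were 56.7 ± 8.14 and 160.5 ± 91.4, with differences of 157 and 4 within the pools. The sum of HBE1 and HBZ was 6.64 ± 0.669 and 12.9 ± 12.2 UMIs per 10000 HBB UMIs, with differences of 1.99 and -3.13 within the pools. Without the libraries E60_1 and E60_2 the share was 1.01 percentage points higher at E70, and without E70_1 and E70_2 the genes at 1000 UMIs differed by -1.67.

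Gene by gene, no gene passed edgeR's test between E60 and E70 in HBB-rich cells. edgeR's quasi-likelihood test on UMIs summed per library, without HBB, called 0 of 1549 genes (0%) at a Benjamini-Hochberg adjusted p under 0.05, with 290 (18.7%) at an unadjusted p under 0.05, while DESeq2 called 228 (14.7%) of the same genes, 175 (11.3%) higher at E70 and 53 (3.42%) lower. DESeq2 gave no adjusted p to 408 of the 1549 genes, which stay in these percentages. Without E60_3 edgeR called 1249 genes and without E70_3 1226, so the count turned on 1 library of each stage. With ENSSSCG00000007978 left out as well it was 113. Of the erythroid lists, 4 globins were tested and 0 passed, with log2 changes of -1.01 for HBM, -0.74 for HBZ, -0.14 for HBE1 and 0.04 for HBQ1. In the list of heme synthesis 9 genes were tested and 0 passed, with a median log2 change of -0.33 beside -0.19 over all genes. For the membrane list the counts were 10 and 0, with a median of -0.08, and for chaperones and antioxidants 7 and 0, with a median of -0.76. XK, a membrane protein of the Kell blood group complex, had a log2 change of 4.18 ± 1.33 (SE, adjusted p = 0.180 by edgeR), with E70_1 and E70_2 high and E70_3 near E60_3. On simulated counts with the same library sizes, this fit called 6% of 200 genes changed 2-fold. It called 72.5% of those changed 4-fold and 84.5% of those changed 8-fold. The simulation gave all libraries of a stage the same mean and a fixed spread that was not taken from these data. It thus lacks the split of E70_1 and E70_2 from E70_3, and these shares are not the power of the fit on the real counts.

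The stage difference in HBB-rich cells was also set against that in the remaining cells of the same 6 libraries, as an interaction with the library as a block. edgeR called 49 of 14476 genes (0.338%; 1711, 11.8%, at an unadjusted p under 0.05), with 42 (0.29%) more positive and 7 (0.0484%) more negative in HBB-rich cells. DESeq2 called 48 (0.332%), of which 40 (0.276%) were more positive and 8 (0.0553%) more negative, and 16 genes were called by both tools. DESeq2 gave no adjusted p to 12629 of the 14476 genes, so its percentages are shares of all genes and not of those it tested. The median log2 interaction over all genes was -1.15 (-0.71 with RLE scaling), and values are read against it. The p-values of edgeR are for a test against 0 and not against this median. Of the red cell genes RHCE, a Rh blood group protein, was called, with a log2 interaction of -2.86 ± 0.69 (SE, adjusted p = 0.0146 by edgeR). This call held under 8 alternatives and was lost under 8. RHCE had 134, 90.5 and 273.6 normalized CPM in the HBB-rich cells of the E60 libraries and 82.4, 136.9 and 173.5 in those of the E70 libraries. The remaining cells were at 1.57 to 4.17 at E60 and at 19.5, 24.2 and 5.17 at E70. SLFN14, which cuts ribosomal RNA in reticulocytes and platelets, was likewise higher in the remaining cells of E70_1 and E70_2 (25.1 and 27.6) than of the other 4 libraries (at most 2.31), with a log2 interaction of -4.79 ± 0.75 (adjusted p = 1.55e-06 by edgeR). In HBB-rich cells it rested on few UMIs, at 14.1, 15.6 and 73.7 normalized CPM at E60 and 18.3, 0 and 40.8 at E70. The count rested on single libraries: it was 0 without E60_1, 3 without E60_2, 15 without E70_1, 17 without E70_2, 235 without E70_3 and 554 without E60_3.

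Markers of other blood cells were scarce in HBB-rich cells, and those of brain cells were present at levels that differed by library. Lymphocyte markers had 12 UMIs in all, with CD3D, CD79A, CD79B, MS4A1 and GNLY (5 of 7) at 0. Granulocyte and monocyte markers had 62 UMIs, with S100A9, S100A12 and MPO (3 of 8) at 0, and platelet markers 142 UMIs, with GP1BA and TREML1 at 0. Summed by list, neurons were at 42.9 to 1204 CPM in the HBB-rich cells of the 8 libraries and at 294 to 7201 CPM in the remaining cells. Astroglia and radial glia were at 38.4 to 1726 and 1057 to 4872 CPM, microglia at 18.1 to 832 and 258 to 2790 CPM, endothelial cells at 4.97 to 72.3 and 194 to 1280 CPM, mural cells at 0 to 53.3 and 50.6 to 441 CPM and oligodendroglia at 6.78 to 1881 and 48.1 to 4526 CPM. These ranges are on the scale without HBB. Without both transcripts the summed level over all libraries was 0.983 times that of the remaining cells for astroglia and radial glia, 1.26 times for microglia, 1.30 times for granulocytes and monocytes, 0.353 times for neurons, 0.62 times for oligodendroglia, 0.481 times for mural cells and 0.234 times for endothelial cells. The part of these transcripts in the results was not tested.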

How the data were processed

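The authors captured cells and nuclei with the 10X Genomics platform, mapped the reads to pre-mRNA of Sscrofa11.1 with STAR inside Cell Ranger (version 2.20 in the submitters' processing notes), and deposited UMI counts per gene and cell for each library, before normalization. The files held 22452 genes, of which 6495 had only an Ensembl ID. HBB-rich cells were taken at an HBB share of at least 30%. The members, gene lists and tests were chosen with earlier results of these data known. Levels are CPM on the UMIs without HBB. Sums per library were tested with edgeR 4.0.16 (TMM, filterByExpr, quasi-likelihood, Benjamini-Hochberg adjusted p under 0.05) in R 4.3.3, with DESeq2 1.42.0 as an alternative, and libraries needed at least 10 HBB-rich cells. The fits were tested on simulated data. Single values were compared with exact permutation tests. Where nothing says that libraries came from separate animals, p-values measure only the spread between libraries. Genes that could be named were all genes of the lists, the 20 most abundant others, the 20 with the highest ratio to the remaining cells (at least 100 UMIs and higher in each library with 50 HBB-rich cells), and up to 10 per direction of each edgeR comparison, and the text gives a part of them, picked after their values were seen. The sets of cells by SLC4A1, HBE1, HBZ and PYY were chosen after their values were seen. Doublets were not removed. Alternatives were an HBB share of 20% or 50%, at most 1000 genes per cell, 2000 UMIs in thinning, other scalings and filters, a replicate block, and leaving out each library, and, chosen after seeing the data, leaving out pairs of libraries or ENSSSCG00000007978. Promoter windows come from RefSeq on the same assembly. Some genes and promoter windows are not reported here.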

Additional observations from a re-analysis of the deposited data

Results flagged for a closer look

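The stage difference in HBB-rich cells differed from that in the remaining cells for 49 genes, by edgeR's test of the interaction over 3 libraries of each stage. Of the 10 named genes with a more positive stage difference in HBB-rich cells, KIAA0513 (adjusted p = 1.78e-06), WDR5 (1.82e-06), CTF1 (5.51e-06), IL10RA (7.24e-05), PDZD2 (8.13e-05), FDXR (0.00015), SLC7A10 (0.00019) and LBR (0.000236) were high in the HBB-rich cells of E70_1 and E70_2. WDR5, for example, was at 293 and 465.5 normalized CPM there, at 13.1, 19.0 and 0 in the E60 libraries and at 0 in E70_3. The other 2, ENSSSCG00000020872 (adjusted p = 6.48e-05) and TMEM225B (0.000456), went the other way between the E70 libraries, with TMEM225B at 480 in the HBB-rich cells of E70_3 and at 0 in those of E70_1 and E70_2. The 7 genes with a more negative difference were CCDC42 (adjusted p = 4.61e-07), SLFN14 (1.55e-06), RPL10A (0.00347), ENSSSCG00000033904 (0.00485), ENSSSCG00000033642 (0.0134), RHCE (0.0146) and ALDH6A1 (0.0322). These tests are against 0, while the median log2 interaction over all genes was -1.15. RHCE apart, each of these genes was at 0 in the HBB-rich cells of E70_1, E70_2 or E70_3. RPL10A was at 0, 9.13 and 0 normalized CPM there, ALDH6A1 at 9.15, 9.13 and 0, and ENSSSCG00000033642 at 0 in each. Their adjusted p-values thus rest on few UMIs in HBB-rich cells. In the remaining cells all 7 were higher in E70_1 and E70_2 than in the other 4 libraries. CCDC42, SLFN14, RHCE and ALDH6A1 were also above the remaining cells in the HBB-rich cells of each E60 library. E70_1 and E70_2 held 29 and 30 HBB-rich cells, and the part of the libraries in these differences was not tested.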

How the results depend on the processing

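Under the alternatives to the comparisons between stages and the counts of genes, 67 values kept the sign of a difference or a count near the main one. The other values were 23 counts that moved and 6 differences that reversed. This sorting used no p-value of the differences, and a count near the main one can hold other genes. Without E60_1 and E60_2, a choice made after seeing the data, the share of HBB-rich cells differed by 1.01 percentage points and median UMIs by -72.8. Without E70_1 and E70_2, also chosen after seeing the data, genes at 1000 UMIs differed by -1.67 and HBE1 with HBZ by -2.61 per 10000 HBB UMIs. HBE1 with HBZ differed by -1.27 at an HBB share of 50%, where E70_1 and E70_2 held no cell, and by -0.692 to 10.7 when each library was left out. HBM was lower at E70 under each of these alternatives.

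edgeR's count for E70 against E60 (0) was 1 with RLE factors, 1 with HBB in the library sizes, 4 at 20% HBB, 70 with at most 1000 genes per cell, 690 with no filter on low counts, 113 without ENSSSCG00000007978 (chosen after seeing the data), and 0 to 1249 when each library was left out. DESeq2 called 228. The count for the difference from the remaining cells (49) was 151 with RLE factors, 135 at 20% HBB, 0 at 50%, 3 with at most 1000 genes, 10 without E70_1 and E70_2, 1 without E60_1 and E60_2, and 0 to 554 when each library was left out. Genes higher in HBB-rich cells rose from 149 to 430 without ENSSSCG00000007978. The cause of these shifts was not tested.

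The log2 interaction reversed at 50% HBB for WDR5 (-8.31), CTF1 (-0.74), IL10RA (-9.77), PDZD2 (-11.09), SLC7A10 (-8.49) and LBR (-13.23), without E70_1 and E70_2 for KIAA0513 (-0.12), WDR5 (-8.27) and SLC7A10 (-8.80), and without E60_1 and E60_2 for RPL10A (5.36). When each library was left out it ranged from -5.64 to 6.04 for ENSSSCG00000020872 and from -10.74 to 3.97 for TMEM225B.

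Library numbers paired the stages only in part. The correlation of deviations was 0.244, 0.0795 and 0.235 for equal numbers. For unequal numbers it was 0.0978 and -0.217 (E60_1 with E70_2 and E70_3), 0.281 and -0.230 (E60_2 with E70_1 and E70_3), and -0.276 and -0.0934 (E60_3 with E70_1 and E70_2). With the replicate number as a block edgeR called 0 genes, and the paired differences were -3.39 percentage points (share), 2673 UMIs, 104 genes, -14.5 (HBM) and 6.24 (HBE1 with HBZ), with exact sign-flip p-values that cannot go below 0.25. The 29, 30 and 18 HBB-rich cells of E70_1, E70_2 and Adult_1 limit what can be seen there.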
